A study of Homo sapiens with 6 samples.

Results

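The genes described here are 10 genes of the Wnt/β-catenin pathway, taken by symbol from a table of 20381 genes measured by RNA-seq in HCCLM3 cells. They are *CTNNB1*, which encodes β-catenin, the scaffolds of its destruction complex *APC*, *AXIN1* and *AXIN2*, the receptor *LGR5*, the feedback inhibitors *RNF43* and *NKD1*, the nuclear partner *TCF7L2*, and the liver targets *GLUL* and *TBX3*. All 10 were in the table, and 9 of them passed the filter on low counts. HCCLM3 is an established line of human hepatocellular carcinoma (HCC). Cells infected with a lentivirus carrying the *PON1* coding sequence (PON1-OE, 3 libraries) were compared with negative control cells (NC, 3 libraries), described in the design text as carrying an empty vector. Both were puromycin-selected populations grown in RPMI-1640 with fetal bovine serum, and no other allele or agent is named in the labels. The sources differ in the serum content and in whether lysis followed shortly after transfection or in a stable line, and how replicate libraries arose is not stated, so p-values measure only the spread between libraries. Errors after ± are SDs over the 3 libraries of a group.

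In the absence of a Wnt signal, β-catenin protein is bound by the axin and APC scaffolds, phosphorylated by kinases of the complex and degraded. When a Wnt ligand engages a Frizzled receptor and its LRP co-receptor, the complex is inhibited, β-catenin accumulates and binds TCF/LEF factors on DNA, and target genes are transcribed, among them feedback inhibitors such as *AXIN2*, *RNF43* and *NKD1*. In the liver this pathway is active in hepatocytes around the central vein, where it maintains glutamine synthetase (*GLUL*) and other pericentral enzymes, and it is often activated in HCC. Since β-catenin is controlled mainly through degradation of the protein, its mRNA level does not report the activity of the pathway.

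The libraries held 15706672 to 17948383 estimated counts each. Levels are given as TMM-normalized CPM, which scales counts to a common library size. *PON1* was read 155 to 181 times in each PON1-OE library and 0 to 3 times in each NC library, which fits the labels. Over all 11958 genes tested, 0.677% passed an adjusted p under 0.05 (quasi-likelihood test of edgeR, Benjamini-Hochberg), 0.502% with higher and 0.176% with lower levels in PON1-OE. An unadjusted p under 0.05 was found for 11.1%, of which 5.91% were higher and 5.17% lower as shares of all genes tested. The label names the cells as hepatocytes. Of 11 hepatocyte markers, *KRT8*, *KRT18* and *HNF4A* had 1223 or more counts in every library. The secreted proteins *TTR* and *SERPINA1* stayed at or under 3 counts in every library, *APOA1* had 0 to 5 counts and *ALB* 4 to 13. The other secreted markers, *TF*, *APOB*, *FGB* and *AFP*, passed the filter. The highest of them per kilobase of exon, *TF*, was above 13.7% of genes. Of 12 markers of blood, endothelial and fibroblast cells, 5 stayed at or under 3 counts in every library, and *PTPRC* and *CD3E* were at 0, while *CD68*, *PECAM1*, *LUM*, *DCN* and *CD79A* passed the filter. *PECAM1* averaged 13.1 CPM in NC against 15.1 CPM with PON1-OE, and *LUM* 13.7 against 13.0 CPM. The summed level of these 12 was 238 to 256 CPM in NC and 257 to 281 CPM in PON1-OE, most of it from *CD68*. Its part in the results below was not tested.

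None of the 10 Wnt/β-catenin genes passed the test between PON1-OE and NC. The libraries of *TBX3* and *NKD1* did not overlap between the groups, which was also so for 16.1% of all genes tested. In edgeR, 0 of the 9 genes that passed the filter had an adjusted p under 0.05, where 0.677% of all genes tested did, and 0 had an unadjusted p under 0.05, where 11.1% did. DESeq2 and limma-voom also called 0 of them at either threshold, though DESeq2 gave no adjusted p for the less abundant ones. *LGR5*, tested without the filter, was not called either. A p that misses the threshold does not show equal levels, so the 95% intervals of the fold change are given beside each gene. For 7 of the 10 genes the interval lay inside a 1.5-fold change in either direction, and for *LGR5*, *TBX3* and *NKD1* it did not. Bulk RNA does not tell a change in every cell from a change in some of the cells.

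**Figure D1:**
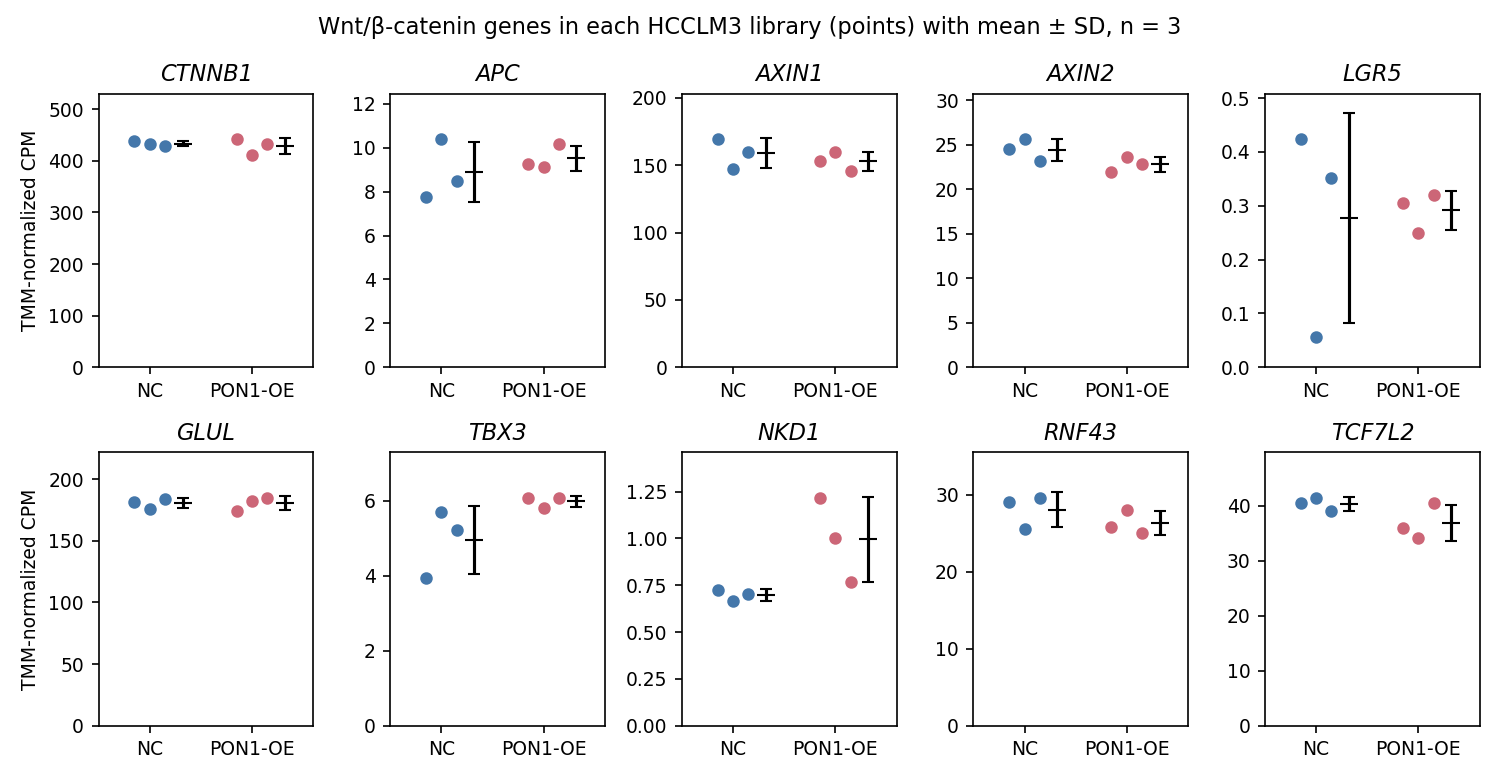
Level of each Wnt/β-catenin gene in TMM-normalized CPM (y axes start at 0) in 3 NC and 3 PON1-OE libraries, each point a library, with the mean ± SD beside the points. The groups overlap in 8 of 10 genes, the exceptions being *TBX3* and *NKD1*. Of all genes tested, 16.1% do not overlap.

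*CTNNB1* (ENSG00000168036, plus strand of chromosome 3, 41194741 to 41260096 on GRCh38 in GENCODE v29) was the most abundant of the 10 genes per length. NC replicates 1 to 3 were at 438, 433 and 428 CPM, and PON1-OE replicates 1 to 3 at 442, 411 and 433 CPM. The PON1-OE libraries held both the highest and the lowest value, so the groups overlapped entirely. NC averaged 433 ± 5.15 CPM and PON1-OE 429 ± 16.3 CPM, a log2FC of −0.015 (standard error 0.036, adjusted p = 0.925). The 95% interval of the fold change was 0.940 to 1.04, the narrowest of the 10, with 6568 to 7837 counts behind each value.

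*AXIN1* and *APC* encode the scaffolds that hold β-catenin in the destruction complex, and both are tumor suppressors. *AXIN1* (minus strand of chromosome 16, 287440 to 352673) measured 169, 148 and 160 CPM in the NC libraries, against 153, 160 and 145 CPM with PON1-OE. NC replicate 2 lay among the PON1-OE libraries and the other NC libraries lay above them, NC replicate 3 by a margin smaller than the rounding. The means were 159 ± 11 and 153 ± 7.27 CPM, with a log2FC of −0.057 (standard error 0.050, adjusted p = 0.744) and a fold change between 0.894 and 1.03 at 95%. With 1 library left out, the log2FC went from −0.11 (NC replicate 2, unadjusted p = 0.0415, adjusted p = 0.418) to −0.0091 (NC replicate 1, adjusted p = 0.985).

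*APC* (plus strand of chromosome 5, 112707498 to 112846239) was at 7.75, 10.4 and 8.5 CPM in the NC libraries, against 9.25, 9.13 and 10.2 CPM with PON1-OE. NC spanned the whole range of the PON1-OE libraries. Its log2FC was 0.095 (standard error 0.13, adjusted p = 0.848), with a fold change between 0.888 and 1.28, and it was 0.0073 without NC replicate 1 and 0.23 without NC replicate 2. A gene on the same strand, ENSG00000258864, shares 230 exon bases with *APC* in GENCODE v29 and had 7, 29 and 23 counts in the NC libraries but 34, 0 and 0 with PON1-OE, beside 128 to 188 for *APC*, so the split of reads between them is uncertain. With the counts of both genes summed, the log2FC was 0.024 (adjusted p = 0.971).

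*AXIN2* is both a scaffold of the complex and a transcriptional target of β-catenin, which makes it a common readout of the pathway. Its level (minus strand of chromosome 17, 65528563 to 65561647) was 24.6, 25.7 and 23.2 CPM in the NC libraries, against 22, 23.6 and 22.9 CPM with PON1-OE. NC replicate 3 fell within the range of the PON1-OE libraries, and the other NC libraries were above it. The means were 24.5 ± 1.25 and 22.8 ± 0.830 CPM, a log2FC of −0.10 (standard error 0.079, adjusted p = 0.694), with a fold change between 0.832 and 1.04. ENSG00000266076, which shares 1316 exon bases with it on the same strand, had 7 counts in NC replicate 2 and 0 in the other libraries.

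*RNF43* encodes a membrane E3 ubiquitin ligase that removes Frizzled receptors from the cell surface, a brake on the pathway that β-catenin itself induces. It lies on the minus strand of chromosome 17 (58352500 to 58417595). In NC it was at 29.1, 25.5 and 29.6 CPM, and with PON1-OE at 25.8, 28.0 and 25 CPM. NC replicate 2 lay among the PON1-OE libraries. The log2FC was −0.094 (standard error 0.080, adjusted p = 0.730) and the fold change lay between 0.835 and 1.05. Of its 6 estimated counts 3 were not whole numbers. ENSG00000285897 shares 4326 exon bases with it on the same strand and had 0 to 11 counts in the libraries. With the counts of these genes summed, the log2FC was −0.10. *SUPT4H1*, also on this strand, shares 143 exon bases with *RNF43* and had 1658 to 2000 counts in a library. It was not part of the sum, and how reads in the shared bases were split is not known. Antisense genes on the other strand share 1521 exon bases with *RNF43*, 300 with *TCF7L2*, 208 with *LGR5* and 67 with *NKD1*, and whether the counting used strand is not stated.

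*NKD1* encodes a cytoplasmic inhibitor that binds Dishevelled, and it is likewise induced by the pathway. It lies on the plus strand of chromosome 16 (50548330 to 50649249). It was near the limit of detection, with 12 counts in each NC library and 20, 16 and 12 counts in PON1-OE replicates 1 to 3. In CPM the NC libraries were at 0.727, 0.663 and 0.704, and those of PON1-OE at 1.22, 1.00 and 0.766. The groups did not overlap (exact permutation test, two-sided, p = 0.1, the smallest that 3 libraries against 3 allow), PON1-OE replicate 3 with the same 12 counts as the NC libraries in a smaller library. The log2FC of 0.51 (standard error 0.38, adjusted p = 0.673) was the largest of the 10, and its 95% interval ran from a fold change of 0.828 to one of 2.46.

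*LGR5* encodes a receptor for R-spondins that marks stem cells of the intestine and pericentral hepatocytes. It lies on the plus strand of chromosome 12 (71439770 to 71586310). With 7, 1 and 6 counts in the NC libraries, against 5, 4 and 5 with PON1-OE, it was removed by the filter. NC averaged 0.277 ± 0.195 CPM and PON1-OE 0.291 ± 0.0364 CPM, where 3 counts correspond to 0.166 to 0.192 CPM. NC replicate 2 was the lowest library and NC replicate 1 the highest. Without the filter the log2FC was 0.092 (standard error 0.76, adjusted p = 0.986) with a fold change between 0.377 and 3.01. A difference within those bounds was not excluded by these counts.

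*TCF7L2* encodes one of the DNA-binding factors that recruit β-catenin to its targets. It lies on the plus strand of chromosome 10 (112950250 to 113167678). NC was at 40.5, 41.5 and 39.1 CPM, and PON1-OE at 36.0, 34.1 and 40.6 CPM. PON1-OE replicates 1 and 2 were below every NC library and PON1-OE replicate 3 was within the NC range. The means were 40.4 ± 1.24 and 36.9 ± 3.35 CPM, a log2FC of −0.13 (standard error 0.072, unadjusted p = 0.0834, adjusted p = 0.526), with a fold change between 0.824 and 1.01. This was the lowest unadjusted p among the 10 genes. Leaving out PON1-OE replicate 3 gave a log2FC of −0.20 (unadjusted p = 0.0137, adjusted p = 0.432), and leaving out PON1-OE replicate 2 gave −0.076 (unadjusted p = 0.309, adjusted p = 0.731).

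*GLUL* encodes glutamine synthetase, the enzyme that makes glutamine from glutamate and ammonia, and its protein is used in pathology as a marker of β-catenin activation in liver tumors. It lies on the minus strand of chromosome 1 (182381704 to 182392206). The NC libraries were at 182, 176 and 184 CPM, and those of PON1-OE at 175, 182 and 185 CPM. The groups covered nearly the same range. The means, 181 ± 4.35 and 181 ± 5.49 CPM, gave a log2FC of 0.000435 (standard error 0.041, adjusted p = 0.999). The fold change lay between 0.943 and 1.06.

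*TBX3* encodes a T-box transcription factor that was described as a β-catenin target in liver tumors. On the minus strand of chromosome 12 (114670254 to 114684164), it had 65 to 103 counts in a library. In CPM the NC libraries were at 3.94, 5.69 and 5.22, against 6.09, 5.82 and 6.06 with PON1-OE. The groups did not overlap (exact permutation test, two-sided, p = 0.1), the closest pair being 5.82 in PON1-OE and 5.69 in NC. The means were 4.95 ± 0.909 and 5.99 ± 0.151 CPM, a log2FC of 0.27 (standard error 0.16, unadjusted p = 0.108, adjusted p = 0.572), with a fold change between 0.956 and 1.52. Leaving out NC replicate 1 gave a log2FC of 0.13, and leaving out NC replicate 2 gave 0.39 (unadjusted p = 0.0435, adjusted p = 0.420).

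The libraries of PON1-OE and NC did not overlap in 2 of the 10 genes, *TBX3* and *NKD1*, both higher in PON1-OE, where this held for 16.1% of all genes tested (8.32% higher and 7.74% lower). The median log2FC of the 9 genes that passed the filter was −0.015, with 4 above 0 and 5 below, against −0.0025 over all genes tested.

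**Figure D2:**
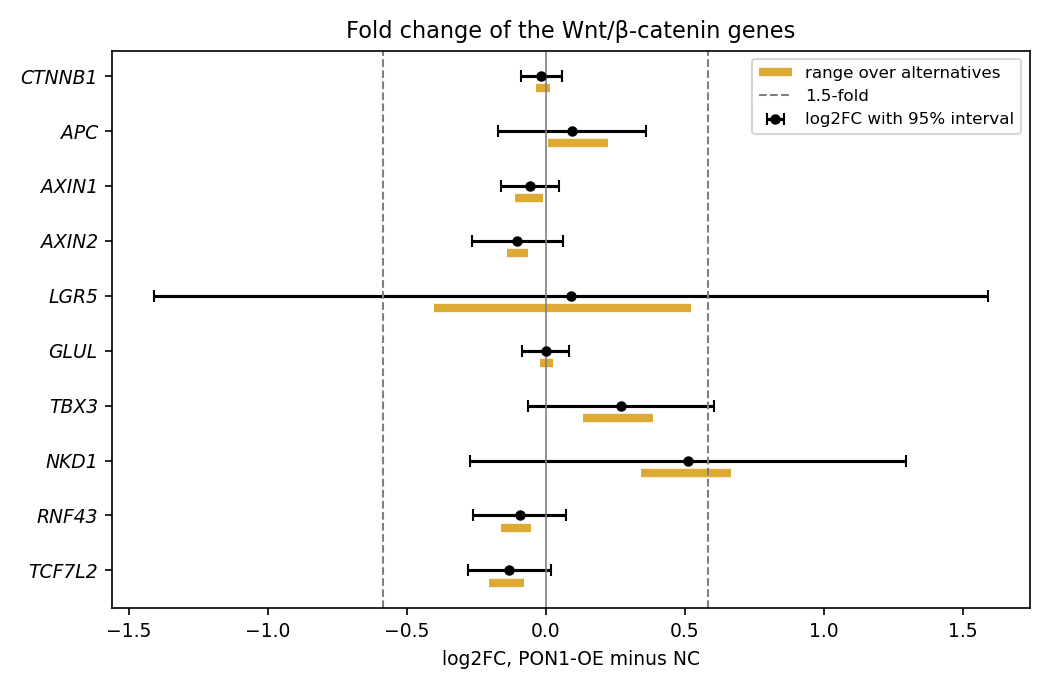
The log2FC of PON1-OE minus NC (x axis) for each Wnt/β-catenin gene from edgeR, with its 95% interval (black) and the range over alternative settings (yellow). Dashed lines mark a 1.5-fold change, which the intervals of *LGR5*, *TBX3* and *NKD1* cross.

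Between genes, levels were compared per kilobase of annotated exon. On this scale the order was the same in both groups from *CTNNB1* down to *APC*. *CTNNB1* stood at 36.3 ± 0.432 CPM per kb in NC and 36.0 ± 1.37 in PON1-OE, above 88.6% of 11897 genes ranked. *AXIN1* (20.8 CPM per kb over the 6 libraries, above 80.5% of genes) and *GLUL* (20, above 79.6%) came next and overlapped across libraries, so their order is not resolved. *TCF7L2* at 5.73 CPM per kb, *AXIN2* at 4.52 and *RNF43* at 3.62 followed, each separated from the next in every library. *TBX3* (0.919) and *APC* (0.739) overlapped with each other, as did *LGR5* (0.0541) and *NKD1* (0.0486). Measured by the longest coding transcript in place of all exons, the order of the 10 genes was the same. Among *AXIN1*, *AXIN2* and *APC*, the scaffolds within these 10 genes, *AXIN1* was the highest per kilobase and *APC* the lowest in every library.

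**Figure D3:**
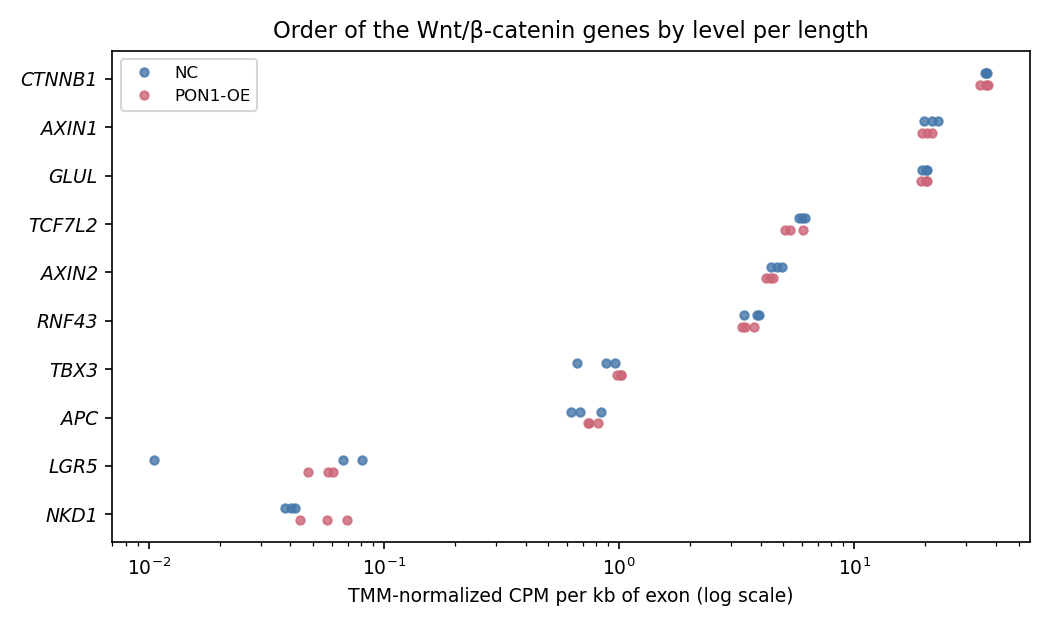
Level per kilobase of exon (x axis, log scale) in each NC and PON1-OE library, for the 10 genes in order of their mean. *CTNNB1* is at 36.1 CPM per kb and *LGR5* and *NKD1* are at 0.0541 and 0.0486. The libraries of *LGR5* spread from 0.0105 to 0.0807 CPM per kb and those of *NKD1* from 0.0381 to 0.0699.

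Across the 6 libraries, the genes whose log2 CPM followed *CTNNB1* most closely were *BTBD7*, *ARRDC4* and *ZC3H13* (Pearson r = 0.994, 0.992 and 0.991). These are the highest of 11958 genes over only 6 libraries that share depth and composition, and they are given as a description.

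The other genes of the pathway were taken from lists by role, 148 genes in 8 lists, of which 84 passed the filter. In edgeR 0 of the 84 reached an adjusted p of 0.05. At the unadjusted threshold there were 10, of which 6 were higher with PON1-OE and 4 were lower, a share of 11.9% against 11.1% over all genes tested. At an adjusted p under 0.05, limma-voom called 0 of them and DESeq2 called 1, *AHR*. Their median log2FC was −0.018. Over the settings that gave an adjusted p, the unadjusted p stayed under 0.05 for *WNT5A* (at most 0.0490) and *AHR* (at most 0.00716), and for the other 8 it was higher in some. Ranks by level within a list depend on the length used. Per kilobase of the longest coding transcript, *CSNK1D* was above *GSK3A* (125 against 54.1 CPM per kb), *TLE5* above *PYGO2* (107 against 54.2), *WLS* above *WNT7B* (28.0 against 22.5) and *CYP27A1* above *AXL* (27.6 against 27.1), and another target was above *FOSL1*. In NC, *FOSL1* (134 ± 3.42 CPM per kb of exon) and *JUN* (133 ± 4.03) did not differ beyond their spread.

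Of the 25 ligands, secretion factors and R-spondins, 7 passed the filter and 15 stayed at or under 3 counts in every library, *WNT3A*, *RSPO1* and *RSPO3* among those at 0. The gene of this list with the highest mean per kilobase of exon was *WNT7B*, with 84.6 ± 5.61 CPM for NC and 91.7 ± 5.12 CPM for PON1-OE. *WNT5A*, a ligand known mainly for signaling without β-catenin, had 40, 53 and 54 counts in the NC libraries, against 74, 59 and 68 with PON1-OE. The groups did not overlap, with a log2FC of 0.55 (standard error 0.20), an unadjusted p of 0.0105 and an adjusted p of 0.262. *PORCN*, the enzyme that acylates Wnt ligands, was the other gene of this list with an unadjusted p under 0.05 (log2FC 0.23, unadjusted p = 0.0396, adjusted p = 0.424).

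Of 17 receptors, 12 passed the filter. The co-receptor *LRP5* was the most abundant per length, with 222 ± 7.39 CPM for NC and 237 ± 7.01 CPM for PON1-OE, a log2FC of 0.092 (standard error 0.040, unadjusted p = 0.0317, adjusted p = 0.395). *FZD5*, a Frizzled receptor, had 32 ± 1.95 and 28.2 ± 1.10 CPM, a log2FC of −0.19 (standard error 0.074, unadjusted p = 0.0198, adjusted p = 0.343). Both genes were without overlap between PON1-OE and NC. This held for 3 of the 12 receptors tested, beside 16.1% of all genes tested.

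The inhibitors at the cell surface were mostly not expressed, with 12 of 19 at or under 3 counts in every library and 5 tested. *DKK1*, a secreted inhibitor that binds the LRP co-receptors, was an exception at 293 ± 17.6 CPM for NC and 278 ± 23.2 CPM for PON1-OE, a log2FC of −0.077 (adjusted p = 0.632). This was −0.025 without PON1-OE replicate 1 (adjusted p = 0.914) and −0.14 without PON1-OE replicate 2 (unadjusted p = 0.00466, adjusted p = 0.152). Per kilobase *DKK1* was above 97.5% of genes. *KREMEN1*, a receptor for DKK proteins, had 19, 38 and 44 counts in the NC libraries, against 53, 40 and 54 with PON1-OE, so that NC replicate 3 lay among the PON1-OE libraries. Its log2FC was 0.65 (standard error 0.27, unadjusted p = 0.0252, adjusted p = 0.372), and 0.39 without NC replicate 1, the library with 19 counts (unadjusted p = 0.158, adjusted p = 0.766).

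Among 27 genes of cytoplasmic signaling and the destruction complex, 22 passed the filter and 0 had an unadjusted p under 0.05, against 11.1% of all genes tested. The kinase *GSK3A*, which phosphorylates β-catenin in the complex, was the most abundant per kilobase of exon at 190 ± 6.27 CPM for NC and 191 ± 6.87 CPM for PON1-OE. Of 18 nuclear factors 16 passed, and *PYGO2*, a co-activator that joins β-catenin through BCL9, was the most abundant per kilobase of exon and the only one of the list with an unadjusted p under 0.05 (log2FC −0.095, standard error 0.043, unadjusted p = 0.0394, adjusted p = 0.423).

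Targets known from many tissues were tested for 14 of 18 genes. *FOSL1*, a subunit of AP-1, had the highest mean per kilobase of exon, with 253 ± 6.46 CPM for NC and 271 ± 5.72 CPM for PON1-OE, a log2FC of 0.10 (standard error 0.037, unadjusted p = 0.0143, adjusted p = 0.294). *CD44*, an adhesion receptor, had the same log2FC of 0.10 (unadjusted p = 0.0243, adjusted p = 0.366). Per kilobase of exon, *MYC* was above 97.4% of genes and *CCND1* above 96.5%, while *SP5*, *LECT2* and *ASCL2* of this list were at 0 in every library.

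In the liver zonation lists, 6 of 13 pericentral and 6 of 11 periportal genes stayed at or under 3 counts in every library, the pericentral *CYP1A2* and *RHBG* and the periportal *CPS1* and *PCK1* among them. Of the pericentral genes 5 were tested. *AXL*, a receptor tyrosine kinase, was the most abundant of them per kilobase of exon, at 125 ± 4.02 CPM for NC and 132 ± 5.94 CPM for PON1-OE. *AHR*, the aryl hydrocarbon receptor, was at 98.6 ± 4.13 and 86.0 ± 3.12 CPM, a log2FC of −0.20 (standard error 0.050, unadjusted p = 0.000766, adjusted p = 0.0833), with no overlap between groups. Its adjusted p was 0.0294 without the filter and 0.0489 in DESeq2. *ASS1*, a urea cycle enzyme and one of the 3 periportal genes tested, had 133, 148 and 135 counts in the NC libraries, against 77, 141 and 62 with PON1-OE, with PON1-OE replicate 2 at the level of NC. Its log2FC was −0.47 (adjusted p = 0.383), and it was −0.89 without PON1-OE replicate 2 (adjusted p = 0.00857) but −0.26 without PON1-OE replicate 3 (adjusted p = 0.771). Per kilobase it was above *CDH1* in NC (2.64 against 2.31 CPM per kb) and below it with PON1-OE (1.91 against 2.0).

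**Figure D4:**
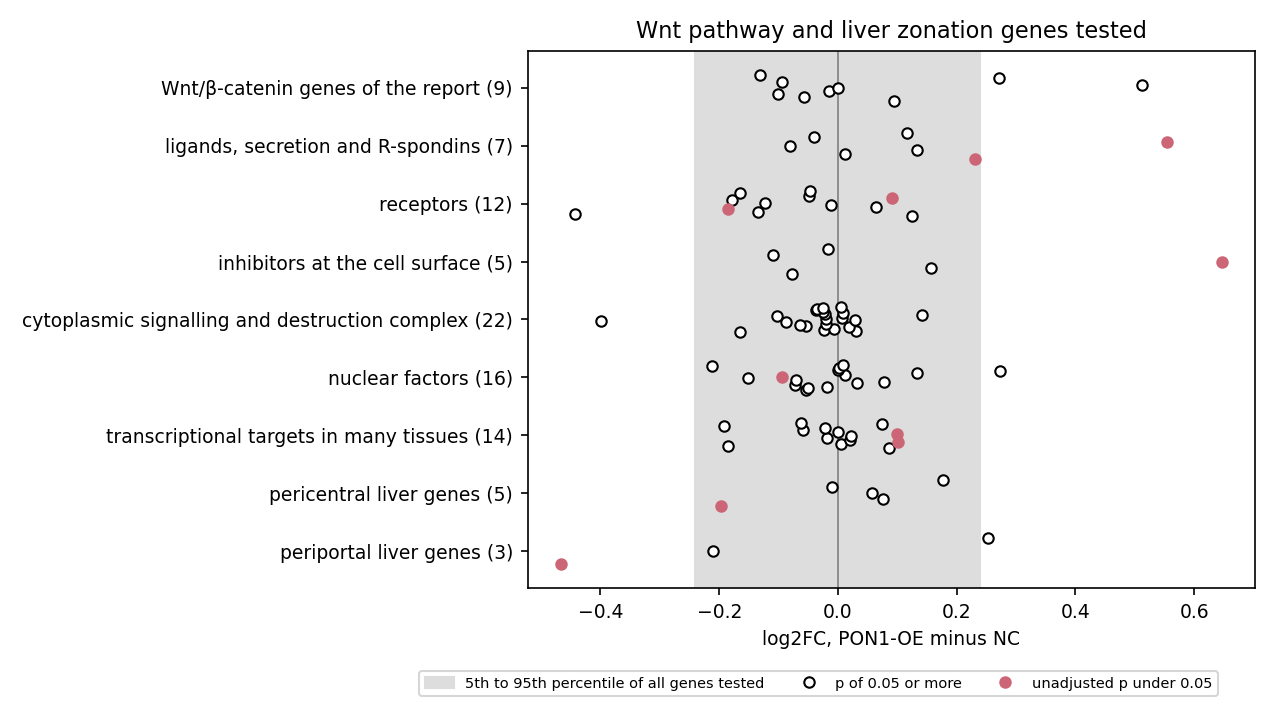
The log2FC of PON1-OE minus NC (x axis) for the genes of each list that passed the filter (number in brackets), red where the unadjusted p was under 0.05. The grey band spans the 5th to 95th percentile of all genes tested, from −0.24 to 0.24, and most genes of every list but the periportal one lie inside it.

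TCF/LEF factors recognize sites with the core CTTTGAT or CTTTGAA. RefSeq promoter windows on GRCh38.p14 were found for 6 of the 10 genes (*CTNNB1*, *APC*, *AXIN1*, *GLUL*, *RNF43* and *TCF7L2*), 11 windows in all. In the 250 bases before the start, 0 of the 11 windows held either sequence on either strand, where 5.94% of 35116 windows of all genes did. This says only that these letters are not in the windows. In GENCODE v29, all 250 bases of the *CTNNB1* window and of each *GLUL* window lay in annotated exons of the gene. For these genes, sequence before the GENCODE start was not searched. In the list of targets from many tissues 3 of 15 windows held them, those of *SP5*, *LECT2* and *MMP7*. The window of *SP5* held 3 matches, the most of the listed genes, and that of *DKK1* held 1. These windows are printed 5′ to 3′ on the strand of the gene with the matches in capitals, beside a window of *TCF7L2* without a match (chr2:170715087-170715336, chr10:52314031-52314280 and chr10:112949997-112950246, all on the plus strand). *SP5* was at 0 counts in every library and *DKK1* at 4235 or more. Both windows were chosen after their values were seen, so they do not relate the letters to the level.
SP5: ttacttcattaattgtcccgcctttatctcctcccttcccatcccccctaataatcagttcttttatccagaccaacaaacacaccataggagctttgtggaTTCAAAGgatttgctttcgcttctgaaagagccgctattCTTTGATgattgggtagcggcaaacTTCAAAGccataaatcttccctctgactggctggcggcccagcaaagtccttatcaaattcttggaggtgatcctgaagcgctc
DKK1: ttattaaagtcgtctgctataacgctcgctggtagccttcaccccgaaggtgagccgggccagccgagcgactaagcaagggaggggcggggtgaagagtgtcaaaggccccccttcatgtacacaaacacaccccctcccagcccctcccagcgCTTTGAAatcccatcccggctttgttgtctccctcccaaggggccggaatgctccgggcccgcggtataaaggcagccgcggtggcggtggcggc
TCF7L2: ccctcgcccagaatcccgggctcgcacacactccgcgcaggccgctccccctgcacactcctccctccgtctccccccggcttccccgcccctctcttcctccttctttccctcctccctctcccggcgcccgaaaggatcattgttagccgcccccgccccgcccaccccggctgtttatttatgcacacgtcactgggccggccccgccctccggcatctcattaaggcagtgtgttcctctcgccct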

How the data were processed

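Poly(A) RNA-seq libraries were made from 3 PON1-OE and 3 NC samples. The authors deposited a table of estimated counts per gene for 20381 Ensembl identifiers, without normalization, and 10.5% of the values were not whole numbers. The submitters' processing notes name Bowtie2 2.2.8, HISAT2, StringTie 1.3.1 and DESeq2, while the genome build and annotation are not given in the sources used here. Positions, exons and lengths came from GENCODE v29 (GRCh38), which holds 20126 of the identifiers.

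Estimated counts were rounded and analyzed in R 4.3.3. filterByExpr kept 11958 genes, and TMM-scaled counts entered the quasi-likelihood test of edgeR 4.0.16 (glmQLFit and glmQLFTest) with group as the single term, with Benjamini-Hochberg adjustment over all genes tested and a threshold of 0.05. Standard errors and 95% intervals were derived from the quasi-likelihood F statistic. Genes removed by the filter were fitted without it (15542 genes), and the DESeq2 fit also ran without it, on the same genes. A floor of 3 counts covers counting error only. Pairs of libraries of a group differed by more than sampling noise (chi-square per degree of freedom 2.11 to 4.11). Alternatives were RLE scaling, 2 other filters, a replicate block, leaving out 1 library at a time, DESeq2 1.42.0, limma-voom (limma 3.58.1), unrounded counts and, chosen after seeing the data, counts summed with same-strand genes sharing at least 200 exon bases. The fits were also run on simulated counts drawn with a single dispersion for all genes. There edgeR recovered 79.7% of the genes changed by a log2FC of 0.4 in either direction. Dispersion was not varied between genes, so this share does not carry over to the genes here.

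The 10 genes and the lists were chosen with earlier results of these data known. From each list, the gene with the highest level per kilobase of exon and the gene with the lowest unadjusted p under 0.05 are named. *PORCN*, *CD44*, *MYC*, *CCND1*, the genes named at or near 0 counts and the printed windows were chosen after their values were seen. Protein sequences were not used here.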

Additional observations from a re-analysis of the deposited data

How the results depend on the processing

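In every fit, 0 of the 10 genes reached an adjusted p under 0.05. The number at an unadjusted p under 0.05 was 0 and ranged from 0 to 2 when 1 library was left out, with *AXIN1* and *TBX3* passing without NC replicate 2 and *TCF7L2* without PON1-OE replicate 3, where 11.4% and 8.29% of all genes tested passed. The groups did not overlap in 2 genes under other scaling, filters and rounding, where 13.9% to 16.3% of all genes tested did not. With 1 library left out they did not overlap in 2 to 6 genes, the 6 without NC replicate 2. Among all genes tested the share was then 23.9% to 29.5%, and 27.9% without NC replicate 2. The median log2FC of the genes that passed the filter ranged from −0.0341 to −0.00591 with 1 library left out. The sign turned, with 1 library left out, for *CTNNB1* (−0.034 to 0.016), *GLUL* (−0.019 to 0.029), *LGR5* (−0.40 to 0.52) and *GSK3A* (−0.018 to 0.036), which passed the threshold in no fit.

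Calls over all genes numbered 81, against 177 without the filter, 40 with the replicate block and 11 to 103 with 1 library left out (11 without NC replicate 3 and 103 without PON1-OE replicate 2). No pairing of libraries by replicate number was seen, which does not exclude one. Same-numbered libraries deviated together with r = 0.0173, −0.0231 and 0.0205, and NC replicate 1 correlated most with PON1-OE replicate 2 (r = 0.0714). Pathway genes at an unadjusted p under 0.05 numbered 10, against 5 in DESeq2 and 6 to 13 with 1 library left out. The share of all genes at this threshold was 11.1%, against 5.51% in DESeq2 and 8.17% to 12.9% with 1 library left out. DESeq2 was fitted without the filter, to 15542 genes. On those genes edgeR gave 11 pathway genes and a share of 9.95%. At an adjusted p under 0.05 there were 0 pathway genes, against 1 (*AHR*) in DESeq2 and without the filter. With 1 library left out there were 0 to 1, *ASS1* without PON1-OE replicate 2. The adjusted p of *AHR* ranged from 0.0294 to 0.256 over all settings. The causes were not tested. DESeq2 gave no adjusted p for *APC*, *AXIN2*, *LGR5*, *TBX3*, *NKD1* and *RNF43*. Low counts limit *LGR5* and *NKD1*.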
